A study of Mus musculus with 7 samples.

Results

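The cadherin superfamily was examined together with the desmosomal cadherins and the catenins in the kidneys of adult male mice, across libraries labelled CDH11+/+ and CDH11-/-. Members were the protein-coding rows of the count table whose symbol is that of a numbered cadherin or cadherin-related gene, a protocadherin, a desmoglein, a desmocollin, Fat1 to Fat4, an alpha-catenin relative, Ctnnb1, a delta-catenin or Jup. This gave 118 of the 42256 identifiers in the table. Of these 118, 81 passed the filter on low counts and were tested, 37 did not pass it, and 5 of the 37 had no count in any library. Bulk RNA was sequenced from 7 mice of a mixed 129S1/Sv x C57BL/6 background, 3 labelled CDH11+/+ (libraries WT1 to WT3) and 4 labelled CDH11-/- (libraries KO1 to KO4). In both groups 1 kidney had been removed and angiotensin II was then delivered by osmotic pump at 800 ng/kg/min until the kidney was taken at 4 weeks. No mouse without this injury was included, and the Cdh11 allele was not described in the sources used here. The comparison asks which adhesion genes differ between the labelled genotypes in injured kidneys.

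Cadherins are calcium-dependent adhesion proteins whose extracellular repeats bind cadherins of the neighbouring cell. Type I and type II classical cadherins bind beta-catenin and delta-catenin through their cytoplasmic tails, and alpha-catenin joins this complex to actin at the adherens junction. Desmogleins and desmocollins bind plakoglobin and are joined through desmoplakin to keratin filaments. In the kidney, tubule segments, endothelium and interstitial cells carry different cadherins, and cadherin-11 is a type II cadherin of mesenchymal cells.

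Total counts per library ranged from 72087906 to 84786351. Defining markers of the kidney were abundant, with summed markers of the proximal tubule at 6699 to 12227 CPM (counts scaled to library size) and of the thick ascending limb at 2494 to 4221 CPM. One library stood apart: WT3 held 64.7 CPM of the summed Y-linked genes (Ddx3y, Eif2s3y, Kdm5d, Uty), against 110.8 to 144.9 CPM in the other 6. The labels do not say whether mice of a group were littermates. CPM values were computed on TMM-scaled library sizes, and adjusted p-values come from edgeR's quasi-likelihood test over all 17964 tested genes with Benjamini-Hochberg adjustment. A gene with an adjusted p under 0.05 is described as called. All fold changes are of CDH11-/- over CDH11+/+ libraries.

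Most tested members of the family were not called. Of the 81 tested members 15 were called (18.5%), where 29.7% of all tested genes were. Clustered protocadherins made up 44 of the 81 and held 1 of the calls (2.27% of the 44). The share of 18.5% thus does not describe the members outside the clusters. There, calls were made in 3 of 4 tested type I, 2 of 5 type II and 1 of 3 other numbered cadherins. They were made in 1 of 2 cadherin-related genes, 2 of 2 desmosomal cadherins, 3 of 8 catenins, 2 of 9 other protocadherins and 0 of 4 Fat genes. Of the 15 called members, the 5 that rose were Ctnna2, Cdh4, Pcdh17, Cdh16 and Cdhr5. The 10 that fell were Pcdhb14, Cdh6, Cdh24, Cdh3, Dsc2, Dsg2, Cdh1, Pcdh12, Ctnnal1 and Ctnna1. Over all tested genes 16.8% were called higher and 12.9% lower. The groups did not overlap in 22 tested members (27.2%), against 38.5% of all tested genes. The median log2 fold change was -0.15 over the tested members and -0.01 over all tested genes. All 15 called members had a mean of at least 1 CPM, a level that 56 tested members reached, and 0 of the 25 tested members below it were called. Without WT3, 8 members were called higher and 11 lower. The number called lower dropped to 3 without WT1, to 4 without WT2 or KO3, and to 6 without KO2.

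**Figure D1:**
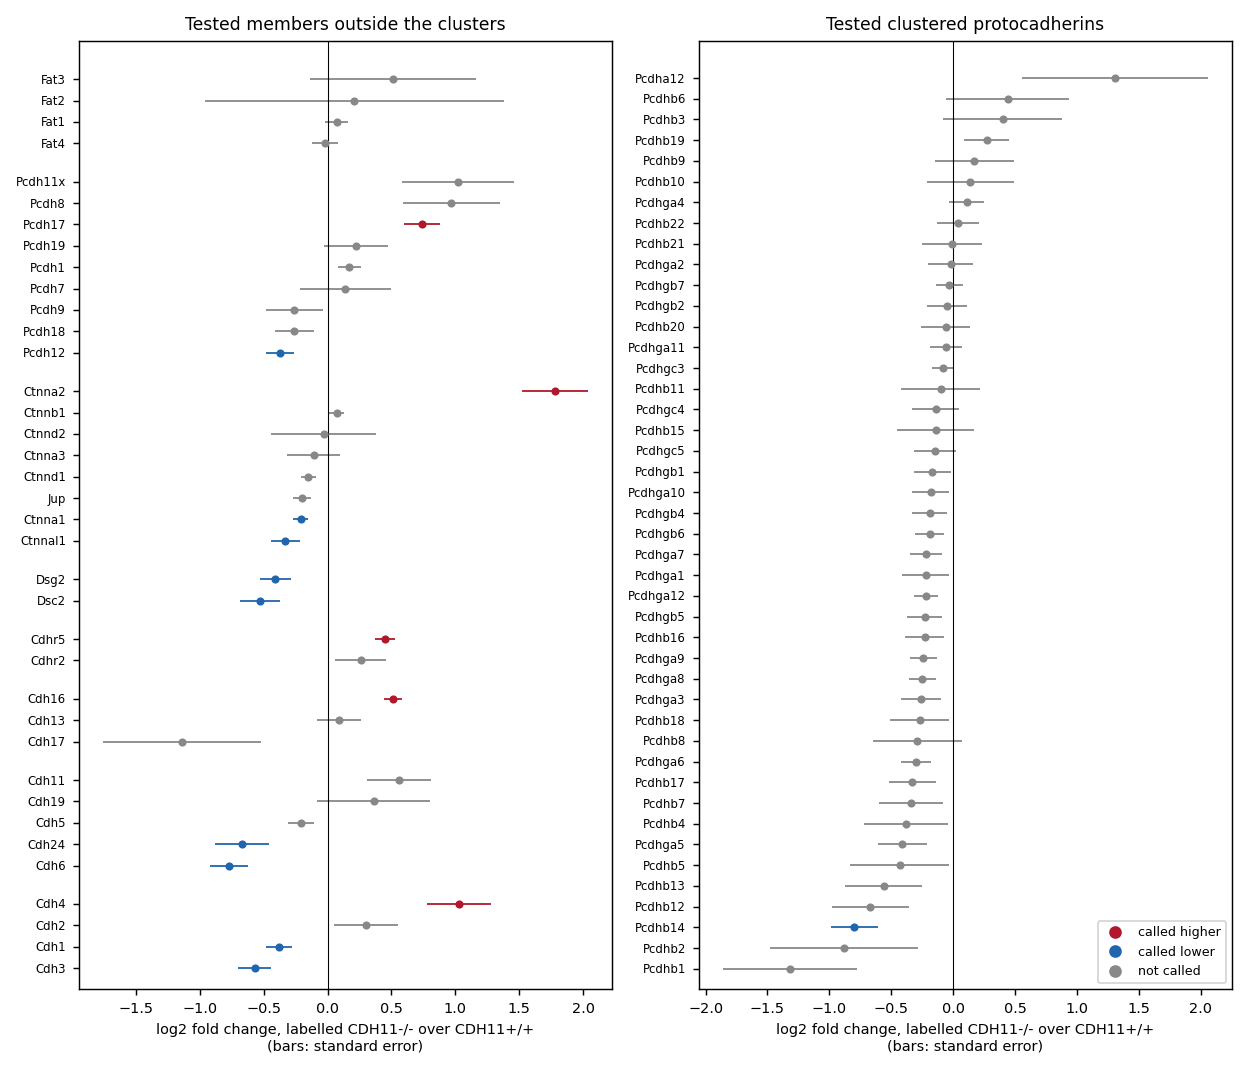
Log2 fold change (horizontal axis, CDH11-/- over CDH11+/+ libraries) of the 81 tested members, 37 outside the protocadherin clusters on the left and 44 clustered protocadherins on the right, with standard errors as bars. The 5 members called higher and 10 called lower are coloured, and 1 of the 15 is a clustered protocadherin.

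Cdh11 transcripts were not fewer in the libraries labelled CDH11-/-. Cdh11 (ENSMUSG00000031673, minus strand, mm10 chromosome 8, bases 102632095-102785642) stood at 6.79, 4.52 and 10.8 CPM in WT1 to WT3, and at 11.3, 9.56, 11.6 and 11 CPM in KO1 to KO4. The lowest values were WT1 and WT2, and WT3 lay inside the range of the other group. The log2 fold change was 0.56 (SE 0.25, adjusted p = 0.14, edgeR), and 0.93 without WT3 (adjusted p = 0.0043, edgeR). It was 0.30 without WT2. In the deposited normalized values, Cdh11 stood at 787.5, 312.9 and 1064 in WT1 to WT3 and at 681.0 to 816.8 in the 4 CDH11-/- libraries, so that both the highest and the lowest value were CDH11+/+. The factor between these values and the counts, relative to the library's median factor, was 1.46, 0.866 and 1.27 for Cdh11 in the CDH11+/+ libraries and 0.874 to 0.903 in the CDH11-/- ones. With these values in place of counts the log2 fold change was 0.244 (adjusted p = 0.665, limma). As the deleted part of the gene is not described, these whole-gene values do not check the labels, and directions here are between libraries as labelled.

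Among the 12 other type II cadherins, Cdh6 and Cdh24 fell, Cdh5 and Cdh19 were tested and not called, and 8 were not tested. Levels per length, in CPM per kb of merged exons, put Cdh5 at the top with a mean of 6.81 over all libraries, ahead of Cdh6 (1.12), Cdh11 (1.05), Cdh24 and Cdh19. Cdh5 encodes the endothelial VE-cadherin. Cdh6, the K-cadherin of developing and proximal tubules, stood at 15.8, 11.8 and 12.0 CPM in the CDH11+/+ libraries and at 8.53, 7.53, 6.18 and 8.83 CPM in the CDH11-/- ones. The groups did not overlap, and the log2 fold change was -0.77 (SE 0.15, adjusted p = 0.0047, edgeR). Leaving out any 1 library kept the call, with a log2 fold change from -0.84 to -0.63.

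Cdh6 and Cdh11 can also be set side by side per length. Per kb, Cdh6 stood at 1.75, 1.31 and 1.33 CPM in the CDH11+/+ libraries, where Cdh11 stood at 0.762, 0.508 and 1.21. In the CDH11-/- libraries Cdh6 was at 0.945, 0.835, 0.684 and 0.979 CPM per kb and Cdh11 at 1.26, 1.07, 1.31 and 1.23. On this scale Cdh6 was the higher of the pair in all 3 CDH11+/+ libraries and Cdh11 in all 4 CDH11-/- ones, with a ratio of Cdh11 to Cdh6 of 0.388 to 0.906 and of 1.26 to 1.91. With the deposited normalized values per kb the order in WT3 turned, with ratios of 0.650, 0.322 and 1.08 in the CDH11+/+ libraries and 1.14 to 1.77 in the CDH11-/- ones. This comparison was noticed in the data and carries no test, and it also depends on the length of merged exons used for each gene.

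Cdh24, a less studied type II cadherin, stood at 1.70, 1.38 and 1.14 CPM against 0.862, 0.713, 0.891 and 1.05 CPM. All CDH11-/- values lay below the CDH11+/+ ones, with a log2 fold change of -0.67 (SE 0.21, adjusted p = 0.0408, edgeR). That call was lost without WT1, WT2, KO1, KO2 or KO3 (adjusted p of up to 0.159). Cdh5 was at 31.0 ± 3.33 CPM (SD, n = 3) against 26.8 ± 2.94 CPM (SD, n = 4) and was not called (log2 fold change -0.21, SE 0.10, adjusted p = 0.15, edgeR). Cdh19, known from the Schwann cell lineage, was at 0.281 ± 0.175 CPM (SD, n = 3) and 0.36 ± 0.0925 CPM (SD, n = 4), with an adjusted p = 0.572 (edgeR). Cdh7, Cdh8 and Cdh12 had 0 counts in every library, so they were not detected at this depth. Cdh9, Cdh10, Cdh18 and Cdh20 had at most 6, 2, 4 and 4 counts in a library. Cdh22 had 10, 4 and 5 counts in the CDH11+/+ libraries and 1, 0, 0 and 1 in the CDH11-/- ones, too few to pass the filter. Without a filter it was called lower (adjusted p = 0.0212, edgeR), on these few counts.

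**Figure D2:**
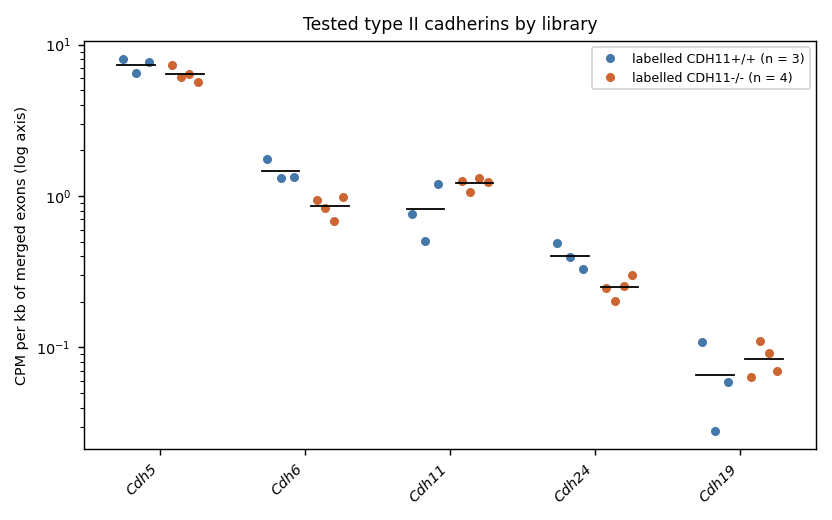
Level per length (CPM per kb of merged exons, log axis) of the 5 tested type II cadherins in each library, with replicates from left to right and the group mean as a line. On this scale Cdh6 is the higher of Cdh6 and Cdh11 in the 3 CDH11+/+ libraries and Cdh11 in the 4 CDH11-/- ones, an order that turns in WT3 with the deposited normalized values.

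The upstream sequences of called members are shown for the 4 with the largest change among those with a promoter window in RefSeq (GRCm38.p6). A window was found for 38 of the 118 members and 6 of the 15 called ones. Each is the 250 bases before the annotated start, written 5′ to 3′ on the gene's strand, with every GGGCGG, or CCGCCC for the other strand, in capitals. These letters are the core of the GC box bound by Sp1-type factors.
Ctnna2 (chr6:77979668-77979917, minus strand): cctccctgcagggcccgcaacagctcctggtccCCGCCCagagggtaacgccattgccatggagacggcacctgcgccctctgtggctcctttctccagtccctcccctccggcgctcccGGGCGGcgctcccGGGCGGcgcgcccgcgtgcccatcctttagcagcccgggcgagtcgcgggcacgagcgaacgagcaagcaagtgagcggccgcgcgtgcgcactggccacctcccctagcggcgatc
Cdh6 (chr15:13173676-13173925, minus strand): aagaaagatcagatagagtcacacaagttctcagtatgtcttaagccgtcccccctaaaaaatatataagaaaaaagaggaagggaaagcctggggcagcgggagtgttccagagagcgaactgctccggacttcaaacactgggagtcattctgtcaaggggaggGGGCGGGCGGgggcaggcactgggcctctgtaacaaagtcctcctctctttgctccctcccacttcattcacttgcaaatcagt
Pcdh17 (chr14:84443313-84443562, plus strand): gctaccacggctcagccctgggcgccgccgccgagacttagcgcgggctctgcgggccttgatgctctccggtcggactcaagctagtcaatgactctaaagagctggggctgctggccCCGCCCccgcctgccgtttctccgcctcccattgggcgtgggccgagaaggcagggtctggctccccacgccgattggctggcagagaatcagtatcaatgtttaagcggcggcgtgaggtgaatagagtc
Cdh24 (chr14:54641365-54641614, minus strand): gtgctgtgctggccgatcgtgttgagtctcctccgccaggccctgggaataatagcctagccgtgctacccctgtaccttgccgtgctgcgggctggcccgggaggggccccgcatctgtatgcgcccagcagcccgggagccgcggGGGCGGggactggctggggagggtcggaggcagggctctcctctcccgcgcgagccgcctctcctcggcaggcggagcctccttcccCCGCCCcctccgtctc
The Ctnna2 window held 3 such matches, the Cdh6 window 2 that overlap, the Cdh24 window 2 and the Pcdh17 window 1. Of all 32851 windows of this length 32.7% held at least 1, so a match is common. The windows were 73.2% G or C for Ctnna2, 51.2% for Cdh6, 64.8% for Pcdh17 and 72.8% for Cdh24, where the median of all windows was 52.4%. Genes that rose (Ctnna2, Pcdh17) and that fell (Cdh6, Cdh24) both held the match. The called members with a window that is not shown were Cdhr5 and Ctnnal1. Cdhr5, which rose, held 0 matches (55.6% G or C), and Ctnnal1, which fell, held 3 (68.4%).

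Of the 5 type I classical cadherins, Cdh1 and Cdh3 fell, Cdh4 rose, Cdh2 was tested and not called, and Cdh15 had at most 1 count in a library. Cdh1 encodes E-cadherin, the main cadherin of distal nephron and collecting duct junctions. It stood at 220.2, 216.0 and 179.2 CPM in the CDH11+/+ libraries and at 173.5, 147.1, 142.8 and 165.2 CPM in the CDH11-/- ones. The groups did not overlap, though WT3 lay close to KO1. Cdh1 fell by 0.38 on the log2 scale (SE 0.10, adjusted p = 0.0157, edgeR), a call lost without WT1 (adjusted p = 0.0572) or WT2 (adjusted p = 0.0539). Cdh3, the P-cadherin gene, stood at 10.6, 10.4 and 9.49 CPM against 6.86, 6.55, 5.63 and 8.38 CPM. Its groups were apart, and the fall of 1.48-fold (adjusted p = 0.00972, edgeR) kept its call without any 1 library.

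Cdh4, the R-cadherin of developing nephrons and neurons, rose from 1.35, 1.65 and 1.39 CPM to 2.23, 2.11, 3.85 and 3.75 CPM. KO3 and KO4 were the high ones, and the lowest of that group was still above the CDH11+/+ libraries. The fold change was 2.05 (adjusted p = 0.0136, edgeR), with the call lost without WT1 (adjusted p = 0.0577). In the deposited normalized values the groups overlapped, at 224.9, 128.6 and 115.0 against 127.5, 136.4, 259.0 and 266.0. With these values the log2 fold change of Cdh4 was 0.316 and not 1.03, with an adjusted p = 0.538 (limma). Cdh2, which encodes N-cadherin and was named after its values were seen, was at 6.02, 3.13 and 7.23 CPM against 5.86, 7.07, 6.66 and 7.39 CPM. The groups overlapped and the change was not called (log2 fold change 0.30, adjusted p = 0.396, edgeR).

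Cdh16 had the highest level per length of all members. It encodes Ksp-cadherin, a kidney-specific cadherin of the basolateral membrane of tubule cells with a short cytoplasmic tail. Cdh16 stood at 482.6, 437.5 and 465.0 CPM in the CDH11+/+ libraries and at 630.4, 661.3, 670.8 and 666.1 CPM in the CDH11-/- ones, or 122.0 against 173.0 CPM per kb on average. The groups were widely separated against their spread, with a 1.42-fold rise (SE 0.07 on the log2 scale, adjusted p = 0.000754, edgeR). Leaving out any 1 library gave a log2 fold change of 0.47 to 0.53. Cdh13, the membrane-anchored T-cadherin without a cytoplasmic tail, was at 4.93 ± 0.917 CPM (SD, n = 3) and 5.24 ± 0.897 CPM (SD, n = 4) and was not called (adjusted p = 0.725, edgeR). Cdh17 was tested and not called, and Cdh23 and Cdh26 had at most 11 counts in a library.

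The cadherin-related proteins Cdhr2 and Cdhr5 join the tips of neighbouring microvilli in the brush border. Cdhr5 rose from 94.1, 95.3 and 114.1 CPM to 133.6, 139.5, 148.3 and 133.4 CPM. The groups did not overlap, and the rise was 1.37-fold (adjusted p = 0.00352, edgeR). Cdhr2 stood at 32.9, 27.7 and 46.4 CPM against 33.6, 38.8, 49.5 and 48.8 CPM and was not called (log2 fold change 0.26, SE 0.20, adjusted p = 0.377, edgeR). WT3 was high for both genes. Of the 3 partners of this complex, Ush1c (harmonin) rose 1.48-fold (adjusted p = 0.000659, edgeR) and the motor Myo7b 1.35-fold (adjusted p = 0.00819, edgeR), while the scaffold Anks4b fell by 0.26 on the log2 scale (adjusted p = 0.0291, edgeR). Myo7b and Anks4b were named after their values were seen. The Anks4b call was lost without WT2, WT3, KO3 or KO4 (adjusted p of up to 0.0764). Markers of the proximal tubule, which bears this brush border, rose in 4 of 6 with 0 falling, where 16.8% of all tested genes were called higher. Their summed level was 6699 to 7866 CPM in CDH11+/+ and 10648 to 12227 CPM in CDH11-/- libraries. WT3 stood apart from WT1 and WT2 in some genes of this list and not in others. In WT1 to WT3 the transporter genes Slc5a2 stood at 63.2, 50.4 and 169.2 CPM and Slc5a12 at 55.7, 60.6 and 209.8 CPM. Slc34a1, at 1541, 1613 and 2206 CPM, was also highest in WT3. Lrp2 (3808, 4018 and 4019 CPM) and Cubn (770.2, 874.8 and 826.9 CPM) did not set WT3 apart. Slc22a6 was lowest in WT3 (461.6, 596.5 and 435.7 CPM). The Slc5a12 value of WT3 lay inside the CDH11-/- range of 203.2 to 277.3 CPM, and that of Slc5a2 below the range of 275.3 to 315.4 CPM. Cdh6, described above as a cadherin of proximal tubules, fell (log2 fold change -0.77), as did Anks4b. Cdh16, a cadherin of tubule cells in general, rose (log2 fold change 0.51). In bulk tissue a different number of cells and a different amount of RNA per cell cannot be told apart. The part of the marker difference in the values of Cdh16, Cdhr5, Cdh6 and the partners was not tested. Cdhr1, Cdhr3 and Cdhr4 had at most 26 counts in a library.

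Of the 9 desmosomal cadherins only Dsg2 and Dsc2, the pair used in simple epithelia, had enough counts to be tested, and both fell. Dsg2 (desmoglein-2) stood at 25.3, 24.1 and 26.0 CPM in the CDH11+/+ libraries and at 21.8, 15.5, 17.2 and 21.0 CPM in the CDH11-/- ones. Dsc2 (desmocollin-2) stood at 6.59, 5.67 and 4.31 CPM against 4.18, 4.25, 3.31 and 3.53 CPM. Both pairs of groups were apart, narrowly for Dsc2. The log2 fold changes were -0.41 (SE 0.12, adjusted p = 0.0252, edgeR) for Dsg2 and -0.53 (SE 0.16, adjusted p = 0.0345, edgeR) for Dsc2. The Dsg2 call was lost without WT1, WT3 or KO3 (adjusted p of up to 0.0711), and the Dsc2 call without WT1, WT2, KO3 or KO4 (adjusted p of up to 0.133). The other 7, which belong to stratified epithelia such as the epidermis, had at most 3 counts in a library.

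Of 8 listed genes of the intracellular desmosomal plaque and its partners, 3 were called (37.5%, where 29.7% of all tested genes were), in both directions. Jup (plakoglobin) is counted with the catenins below and was not called (log2 fold change -0.20). Dsp (desmoplakin), which anchors keratin, fell from 81.1, 76.4 and 64.1 CPM to 53.6, 43.7, 45.2 and 51.2 CPM, a 1.53-fold fall (adjusted p = 0.00218, edgeR) with no overlap between groups. Evpl (envoplakin) rose from 16.8, 15.4 and 24.2 CPM to 39.1, 38.1, 43.8 and 38.0 CPM, or 2.11-fold (adjusted p = 0.00132, edgeR). Pkp3 (plakophilin-3) rose 1.34-fold (adjusted p = 0.0056, edgeR). These 3 calls held without any 1 library. The other 5 of the 8 plaque genes and partners, Pkp1, Pkp2, Pkp4, Ppl and Perp, were not called. Of these, Ppl lay lower with its groups apart (log2 fold change -0.58, adjusted p = 0.0947, edgeR). Pkp4 (log2 fold change 0.16) and Perp (0.23) lay higher with their groups apart, and the groups of Pkp1 and Pkp2 overlapped.

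**Figure D3:**
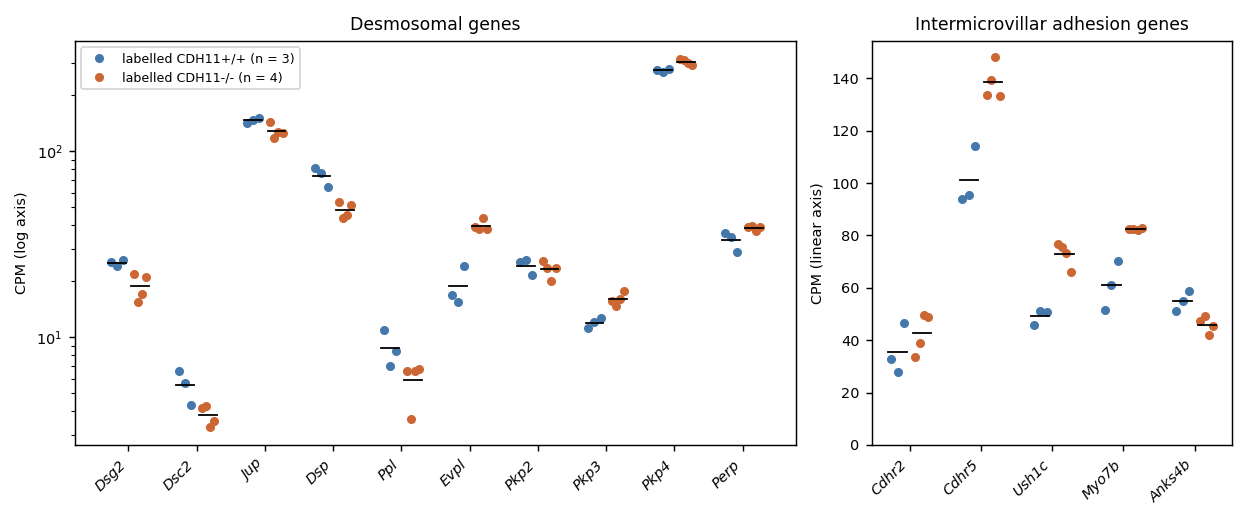
CPM by library of desmosomal genes (left, log axis) and of intermicrovillar adhesion genes (right, linear axis from 0), with replicates from left to right and the group mean as a line. Dsg2, Dsc2 and Dsp lie lower and Evpl and Pkp3 higher in the CDH11-/- libraries, and Cdhr5, Ush1c and Myo7b lie higher while Anks4b lies lower.

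Of the 8 catenin genes 2 fell and 1 rose (37.5% called, where 29.7% of all tested genes were). The other 5 were not called, and the most abundant, Ctnnb1, was among these. Ctnnb1 (beta-catenin, which also acts in Wnt signalling) stood at 310.3, 287.0 and 288.4 CPM against 314.8, 306.7, 307.4 and 309.4 CPM (log2 fold change 0.07, SE 0.06, adjusted p = 0.422, edgeR). Ctnna1, the epithelial alpha-catenin, was at 251.2, 249.5 and 249.7 CPM in the CDH11+/+ libraries and at 226.2, 210.9, 204.3 and 224.4 CPM in the CDH11-/- ones. The CDH11+/+ values lay close together (SD 0.897 CPM, n = 3) and above all of the others. The fall of 0.21 on the log2 scale (SE 0.06, adjusted p = 0.0299, edgeR) was the smallest in size of the 15 called. Without WT1, WT2, KO2 or KO3 it was not called (adjusted p of up to 0.0868). Ctnnal1, alpha-catulin, fell 1.25-fold (adjusted p = 0.0449, edgeR), a call lost without WT1, WT2, KO1, KO2 or KO3 (adjusted p of up to 0.133).

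Ctnna2, the neuronal alpha-catenin, had the largest change of the tested members in absolute log2 fold change. It stood at 0.737, 0.722 and 0.716 CPM in the CDH11+/+ libraries and at 2.0, 3.42, 2.82 and 1.72 CPM in the CDH11-/- ones. Every CDH11-/- library was above all of the CDH11+/+ ones and the CDH11+/+ ones differed little, with a 3.42-fold rise (log2 fold change 1.78, SE 0.26, adjusted p = 0.00133, edgeR). The log2 fold change was 1.58 to 1.92 without any 1 library. Its counts were 52 to 62 and 137 to 245 in the respective groups. Per length, Ctnna2 lay far below Ctnna1, at 0.358 against 33.7 CPM per kb in the CDH11-/- libraries. Jup (plakoglobin, shared by desmosomes and adherens junctions) and Ctnnd1 (delta-1 catenin), both named after their values were seen, were 0.20 and 0.15 lower in log2 and were not called (adjusted p = 0.0682 and 0.0887, edgeR). Jup was called without KO1 (adjusted p = 0.02), with DESeq2 (adjusted p = 0.0326), with the deposited normalized values (adjusted p = 0.0425, limma) and with protein-coding genes only (adjusted p = 0.0461, edgeR). Ctnnd1 was called with DESeq2 (adjusted p = 0.0333) and with the filter raised to 1 CPM on average (adjusted p = 0.0497, edgeR).

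Among the 12 protocadherins outside the clusters, Pcdh17 rose, Pcdh12 fell, 7 were tested and not called, and 3 were not tested. Pcdh17, a delta-2 protocadherin known from neuronal contacts, stood at 39.2, 34.1 and 42.0 CPM in the CDH11+/+ libraries and at 58.1, 81.5, 63.2 and 53.9 CPM in the CDH11-/- ones. The groups did not overlap, and KO2 was the highest. The rise was 1.67-fold (log2 fold change 0.74, SE 0.14, adjusted p = 0.00588, edgeR) and was called without any 1 library. Pcdh12, an endothelial protocadherin, was at 15.5, 17.7 and 15.9 CPM against 15.3, 11.7, 11.8 and 11.6 CPM. KO1 lay just under the CDH11+/+ libraries and apart from the other 3. The fall of 0.37 on the log2 scale (adjusted p = 0.0297, edgeR) was not called without WT1, WT2, KO2, KO3 or KO4 (adjusted p of up to 0.1). Pcdh1, the most abundant protocadherin, was at 121.2 ± 13.6 CPM (SD, n = 3) and 136.7 ± 9.20 CPM (SD, n = 4) and was not called (adjusted p = 0.172, edgeR). Endothelial markers fell in 4 of 7 with 0 rising, where 12.9% of all tested genes were called lower. They stood at 373.8 to 446.7 summed CPM in CDH11+/+ and 267.0 to 329.8 CPM in CDH11-/- libraries. The part of this in the values of Pcdh12 and Cdh5 was not tested.

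The clustered protocadherins lie in tandem arrays on chromosome 18, where alpha and gamma variable exons are joined to constant exons shared by the cluster and the beta genes are close copies, so the division of reads between them is uncertain. Of 57 identifiers 44 were tested and 1 was called, Pcdhb14, which stood at 2.34, 1.71 and 1.64 CPM against 1.23, 1.13, 1.06 and 0.940 CPM and fell 1.74-fold (adjusted p = 0.0128, edgeR). That call was lost without WT1 (adjusted p = 0.0588). All 22 beta and 21 gamma members were tested but only 1 of the 14 alpha members, a cluster best known from neurons. Log2 fold changes were below 0 for 36 of the 44. Their median was -0.19 in the gamma cluster and -0.25 in the beta cluster, against -0.01 over all tested genes. As reads are shared within a cluster, these rows are not independent of each other and do not count as 36 separate results. Summed over the cluster, gamma members stood at 110.6, 101.9 and 104.8 CPM in the CDH11+/+ libraries and between 85.3 and 101.2 CPM in the CDH11-/- ones. The beta sums were 14.6 to 16.4 and 12.2 to 15.0 CPM, and the alpha sums 0.589 to 1.09 and 0.312 to 0.615 CPM. The gamma sums did not overlap, but WT2 lay close to KO1, the beta and alpha sums overlapped, and the sums carry no test. Pcdhgc3 was the most abundant member, at 20.8, 17.7 and 21.5 CPM against 20.6, 18.6, 19.5 and 17.2 CPM, and was not called (adjusted p = 0.548, edgeR), nor was Pcdhgb6 (adjusted p = 0.282, edgeR).

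The giant Fat cadherins, which act in planar polarity and, for Fat1, at the podocyte slit diaphragm, were all tested and none of the 4 was called. Fat1 was at 213.7 ± 24.2 CPM (SD, n = 3) and 224.3 ± 13.0 CPM (SD, n = 4, adjusted p = 0.574, edgeR), and Fat4 at 19.8 ± 2.93 and 19.5 ± 0.437 CPM (adjusted p = 0.879, edgeR). Fat2, named after its values were seen, varied within groups, at 0.850, 0.0134 and 0.774 CPM in the CDH11+/+ libraries and 0.295, 0.0279, 1.31 and 0.877 CPM in the CDH11-/- ones. WT2 and KO2, with 1 and 2 counts, were the low ones. Summed markers of urothelium and stratified epithelium were 6.01, 1.58 and 7.27 CPM and 3.38, 0.838, 11.8 and 5.13 CPM in the same order, lowest in the same pair of libraries and highest in KO3. Of these 7 markers 1 fell, where 12.9% of all tested genes were called lower, and 0 rose. Their part in the values of Fat2 was not tested.

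**Figure D4:**
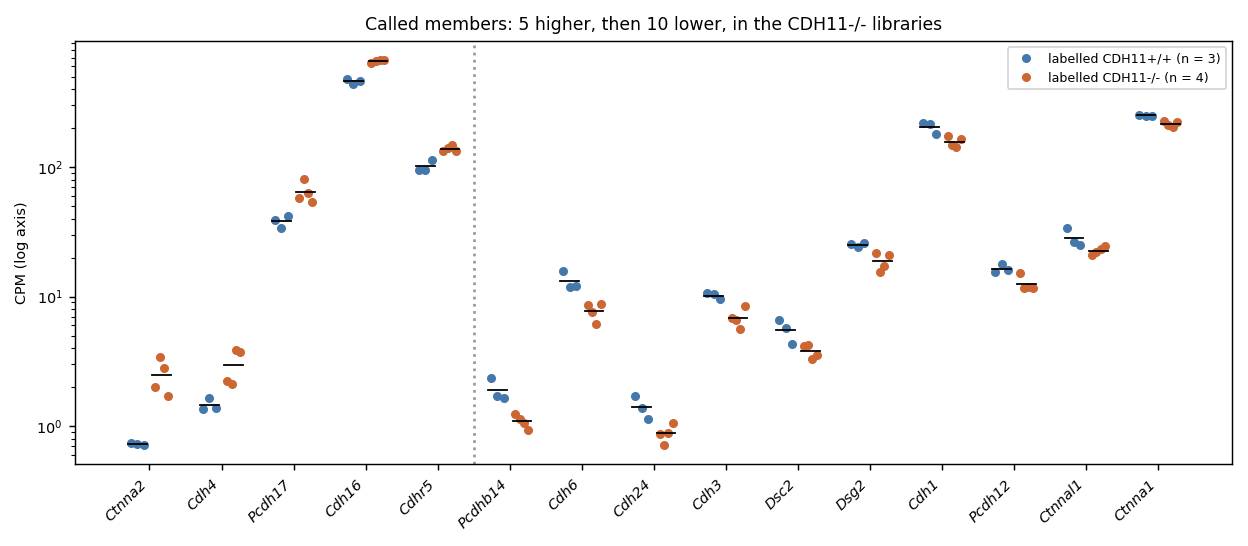
CPM (log axis) of the 15 called members in each library, with replicates from left to right and the group mean as a line. The 5 members left of the dotted line rose and the 10 to the right fell, and in all 15 the groups do not overlap. As the 15 were chosen by a test on the same values, this separation is not further support. Over all tested genes the groups did not overlap in 38.5%.

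Several members share the chromosome of Cdh11. Chromosome 8 holds 8 other members, of which Cdh5, Cdh16, Cdh3 and Cdh1 were tested and lie within 10 Mb of Cdh11. Cdh5 begins 1.32 Mb, Cdh16 1.82 Mb, Cdh3 3.73 Mb and Cdh1 3.82 Mb beyond it. Cdh16 rose, and Cdh3 and Cdh1, which lie close to each other, fell, so 3 of these 4 were called and not in 1 direction. Of the 197 tested genes in this window other than Cdh11, 64 were called (32.5%), 36 higher and 28 lower, near the 29.7% of all tested genes. Cdh8, 3.22 Mb to the other side, had no counts, and Fat1 (57.6 Mb) and Cdh13 (15.5 Mb) lie farther off and were not called. In mm10 coordinates Cdh16 spans bases 104601911-104624396, Cdh3 106510891-106557297 and Cdh1 106603351-106670246.

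**Figure D5:**
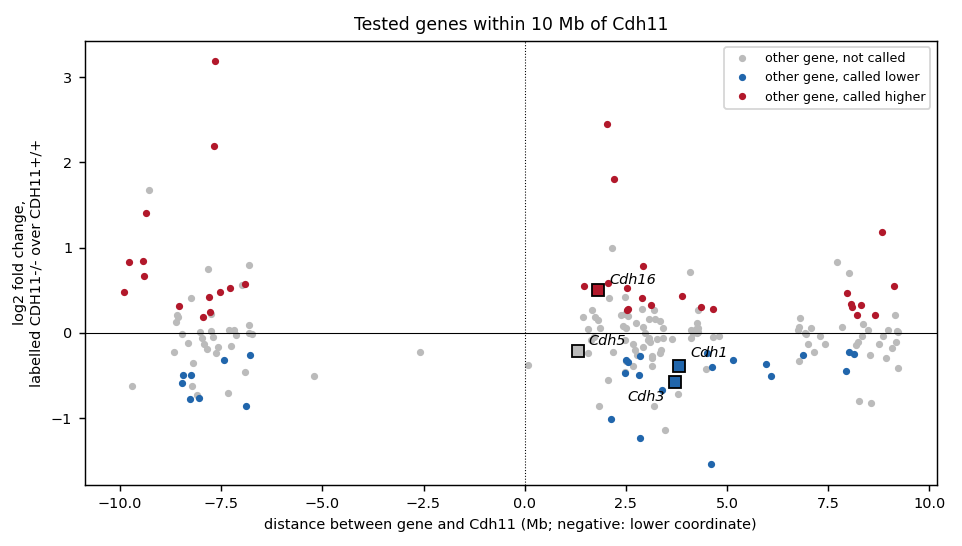
Log2 fold change (vertical axis, CDH11-/- over CDH11+/+ libraries) of tested genes within 10 Mb of Cdh11 against the distance between the gene and Cdh11 in Mb. Squares mark Cdh5, Cdh16, Cdh3 and Cdh1, with Cdh16 called higher, Cdh3 and Cdh1 called lower and Cdh5 not called among 197 genes of which 64 were called.

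Other junction genes outside the family moved in both directions. Of 38 listed genes 37 were tested, 9 rose and 8 fell (45.9%, where 29.7% of all tested genes were called). Among the linkers to actin, Vcl (vinculin) stood at 106.6, 96.8 and 108.5 CPM against 82.7, 75.7, 78.2 and 72.2 CPM and fell 1.35-fold (adjusted p = 0.00193, edgeR), and 3 of 5 such genes fell with 0 rising. Of 5 nectin-system genes 1 fell and 1 rose, with Nectin2 falling 1.42-fold (adjusted p = 0.00258, edgeR). Ctnnbip1, an inhibitor of beta-catenin binding to TCF factors, rose 1.47-fold (adjusted p = 0.00681, edgeR). Among 8 tested genes that hold cadherin repeats outside the family list, or regulate such proteins, 2 rose and 0 fell. The number falling in the whole list was 5 without WT2 or KO3.

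Some markers of several kidney cell types differed between the labels and stand beside the results above. Over all tested genes 16.8% were called higher and 12.9% lower. Principal cell markers fell in 4 of 4 (317.4 to 461.3 against 226.6 to 270.4 summed CPM), thick ascending limb markers in 1 of 4 and distal convoluted tubule markers in 1 of 3, in segments that carry E-cadherin. Podocyte markers fell in 3 of 4 and intercalated cell markers in 2 of 4. Markers of fibroblasts and pericytes, mesenchymal cells known to carry Cdh11, rose in 1 of 6 and fell in 1, at 170.2, 235.9 and 324.9 summed CPM in WT2, WT1 and WT3 and at 270.9 to 341.0 CPM in the CDH11-/- libraries. Within each group this is the order of Cdh11, with sums of 330.4, 270.9, 341.0 and 296.7 CPM in KO1 to KO4. Across groups the order differed, as WT3 lay above KO4 in these sums and below KO4 in Cdh11. The match of orders was noticed in the data and carries no test. Smooth muscle, immune, glia and adipose markers had 0 called, proliferation markers rose in 3 of 3, and Adipoq had 0 counts throughout. The part of these marker differences in the cadherin and catenin values was not tested.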

How the data were processed

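Directional RNA-seq libraries were made from whole kidneys, per the labels' protocols. The authors deposited a table of expected counts per gene, given as whole numbers and used as they stand. They also deposited a normalized signal per gene, whose values differ from the counts by a factor specific to each gene and library, used here as an alternative on the log2(value + 1) scale. DRAGEN, DESeq2 and mm10 are named without roles or versions, per the submitters' processing notes, and the annotation release is not given in the sources used here. Tests used edgeR 4.0.16 in R 4.3.3 with TMM scaling, filterByExpr and a robust quasi-likelihood fit of genotype label over the 7 libraries. The adjusted p threshold was 0.05 and the biological coefficient of variation 15.2%. Alternatives were DESeq2 1.42.0, limma 3.58.1, sva 3.50.0, other scaling, filters and thresholds, and each library left out. The 21 pairs of libraries differed beyond counting noise, with median chi-square values of 2.695 to 12.82 on 1 degree of freedom. WT3 was farther from WT1 (6.064) and WT2 (7.47) than these were from each other (2.984). The labels describe separate mice, and p-values measure the spread between these samples only. CPM per kb uses the merged exon length of each gene. The members, the lists of junction genes and of cell type markers, and the tests were chosen with earlier results of these data known. Named genes were Cdh11 and the type II cadherins, every called member, the 2 most abundant tested members of each role, and up to 8 called junction genes by adjusted p, of which 1 is not reported here. Cdh2, Fat2, Jup, Ctnnd1, Myo7b and Anks4b were added after their values were seen.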

Additional observations from a re-analysis of the deposited data

Results flagged for a closer look

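Pcdh12 in KO1, at 15.3 CPM, stood apart from the other 3 CDH11-/- libraries, which lay at 11.6 to 11.8 CPM. The gap was 0.957 of the range of the group, above the Dixon critical value for 4 samples. It was the only one of 40 genes' CDH11-/- groups to pass this value, and chance passes about 1 in 20 groups.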

How the results depend on the processing

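The 15 called members were also called with DESeq2, limma-voom, other scaling factors, other filters, no robust estimation, 1 surrogate variable and protein-coding genes only, and 11 of the 15 with the deposited normalized values. Over 10 such settings, 387 of 398 values of 40 named genes kept their direction and side of the threshold, 4 lost a call, 7 gained one and 0 reversed. The 4 were Cdh4, Cdh24, Dsc2 and Pcdh12 with the deposited normalized values. The calls gained were of Cdh11, Jup and Ctnnd1. limma-voom called 8 members higher in place of 5, and an adjusted p under 0.01 left 2 of the 10 members called lower. The log2 fold change of Cdh11 was 0.747 with limma-voom (adjusted p = 0.0227) and 0.552 with 1 surrogate variable (adjusted p = 0.0371), and was called in both. Leaving out each library gave 4 to 8 members called higher, 3 to 11 called lower, 6 to 10 other junction genes called higher and 5 to 7 called lower, and a Cdh11 log2 fold change of 0.304 to 0.933. Directions reversed for 3 uncalled members. The log2 fold change ranged from -0.051 to 0.195 for Cdh13, from -0.14 to 0.047 for Fat4 and from -0.439 to 0.644 for Fat2 over the 7 omissions. The reversals were Cdh13 without WT2 (-0.051), Fat4 without WT1 (0.047) or 3 (0.013), and Fat2 without WT2 (-0.360) or KO3 (-0.439). The cause was not tested. The median log2 fold change of all genes stayed between -0.027 and -0.003 under every setting in which genes were refitted. Depth limits 37 members with at most 26 counts in any library. No paired analysis was possible because nothing in the labels ties a mouse of one group to a mouse of the other.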
